A study of Mus musculus with 8 samples.

Results

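The genes that encode histone H3.3 and the proteins that carry and deposit it were described by the open chromatin peaks at their loci in mouse pachytene spermatocytes. The set was a fixed list of 10 genes out of 21938 protein-coding genes in the GENCODE M21 annotation of the mouse mm10 genome. It held the H3.3 genes *H3f3a* and *H3f3b*. It held the HIRA complex genes *Hira*, *Ubn1*, *Ubn2* and *Cabin1*, and the *Daxx* and *Atrx* genes. The other members were the H3-H4 chaperone genes *Asf1a* and *Nasp*. The rule for the list uses no measured value, though earlier results of these data were known when it was drawn up.

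H3.3 is the histone H3 variant that can be placed on DNA outside replication. The HIRA complex, made of HIRA, UBN1 or UBN2, and CABIN1, deposits H3.3 mainly at active genes and other exposed DNA. DAXX, working with the ATPase ATRX, deposits it at repeats, telomeres and pericentric heterochromatin. ASF1A hands H3-H4 to HIRA, and NASP holds a soluble store of H3-H4. In pachytene spermatocytes H3.3 is loaded on the X and Y chromosomes as these are silenced. The question put to the data was whether the loci of this pathway looked the same in *Arid1a* WT and *Arid1a* cKO cells. ARID1A is a subunit of the BAF chromatin remodeler.

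Accessibility was measured by ATAC-seq, in which a transposase inserts sequencing adapters into exposed DNA. There were 2 groups with 4 libraries each. *Arid1a* cKO males were *Arid1a* fl/fl and carried *Stra8-Cre* (Tg/0), a transgene active from spermatogonia onward. *Arid1a* WT males were *Arid1a* fl/fl or *Arid1a* fl/+, so a floxed allele was common to both groups, and the floxed line was on a CD1 background. Testes of several adult males were pooled, and pachytene spermatocytes were enriched by sedimentation at unit gravity. Excision by *Stra8-Cre* was incomplete, so the cKO cells included some that kept ARID1A. The paper reports that spermatocytes without ARID1A arrest at mid-pachynema. The mix of pachytene substages in the enriched cells of the 2 groups is not given, and its part in the values below was not tested. The labels do not say that the 4 libraries of a genotype came from separate cell preparations.

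Only 1 peak list per genotype was analysed, made by the authors from the 4 libraries of that genotype. The value given for each peak is its fold enrichment, the fragment pileup at the summit over the background, with 1 added to each. The peak names and folds of a list came from 1 library, and a row gives the stretch of a named peak that was also called in another replicate. Rows with the same name were joined and are called a peak. A replicate can give more than 1 row for a peak, so the number of rows is only a rough sign of how many replicates shared it. No spread between replicates can be had from such lists, and no difference between genotypes was tested. The 95% intervals given below are exact Poisson intervals for the summit fragments of 1 library. Those of ratios are exact conditional intervals. Both cover counting error only, and they make no allowance for the summit being the highest point of a peak.

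The gene window was the gene body with 1000 bp upstream, and the start peak was the strongest peak within 1000 bp upstream and 100 bp downstream of any annotated start. The sequences below are the 250 bases upstream of the RefSeq start (GRCm38.p6) and are shown for the genes on which the comparisons turn. Each is written 5' to 3' on the strand of the gene. Capitals mark the CCAAT box. They also mark the GC box, searched as GGGCGG. A further motif, TGACG, is the core of the cAMP response element. The ETS site was searched as CCGGAAG. The TATA box was searched as TATAAA. The E-box (CACGTG), a Kaiso-type palindrome (TCTCGCGA) and the MYB site (AACNGNC) were also searched and are not marked. Every motif was searched on both strands, and marked motifs may overlap. Of 32851 RefSeq promoter windows of this length, 33.8% held the CCAAT box, 32.7% the GC box, 17.8% TGACG, 6.91% the ETS site and 12.4% the TATA box. The first pair encodes the same protein. The windows lay at chr1:180813606-180813855 and chr11:116024505-116024754, both on the minus strand.
H3f3a: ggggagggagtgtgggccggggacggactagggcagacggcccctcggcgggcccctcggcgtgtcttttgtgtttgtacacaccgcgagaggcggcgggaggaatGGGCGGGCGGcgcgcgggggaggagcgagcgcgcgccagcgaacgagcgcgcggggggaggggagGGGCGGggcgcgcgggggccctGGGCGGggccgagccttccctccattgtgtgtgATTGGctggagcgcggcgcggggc
H3f3b: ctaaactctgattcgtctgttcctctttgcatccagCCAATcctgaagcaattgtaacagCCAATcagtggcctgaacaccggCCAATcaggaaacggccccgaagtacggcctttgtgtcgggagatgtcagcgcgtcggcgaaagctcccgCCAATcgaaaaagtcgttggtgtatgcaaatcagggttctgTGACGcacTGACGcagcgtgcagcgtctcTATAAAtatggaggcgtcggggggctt

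The promoters of the H3.3 genes had little in common. That of *H3f3a* had a GC content of 77.2%, higher than in 97.4% of promoter windows, with 35 CpG dinucleotides. It held 4 GC boxes, a number reached by 4.09% of windows, 1 CCAAT box and no TATA box. That of *H3f3b* had a GC content of 54.0%, near the median of 52.4% for all windows, and 19 CpG. It held 4 CCAAT boxes, which 0.84% of windows did, as well as 2 TGACG and 1 TATA box, and it had no GC box. The coding sequences also differed, with 313 of 408 bases the same (76.7%).

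The ubinuclein genes are shown because each had 1 full cAMP response element, TGACGTCA, which 1.55% of windows held. A full element is counted as 2 TGACG. The *Ubn1* window was chr16:5049807-5050056 and that of *Ubn2* was chr6:38433675-38433924, both on the plus strand.
Ubn1: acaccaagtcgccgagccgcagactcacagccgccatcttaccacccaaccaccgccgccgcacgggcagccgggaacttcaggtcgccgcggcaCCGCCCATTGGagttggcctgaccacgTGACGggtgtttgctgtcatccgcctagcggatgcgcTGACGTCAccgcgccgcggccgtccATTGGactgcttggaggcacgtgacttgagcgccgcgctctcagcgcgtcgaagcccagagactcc
Ubn2: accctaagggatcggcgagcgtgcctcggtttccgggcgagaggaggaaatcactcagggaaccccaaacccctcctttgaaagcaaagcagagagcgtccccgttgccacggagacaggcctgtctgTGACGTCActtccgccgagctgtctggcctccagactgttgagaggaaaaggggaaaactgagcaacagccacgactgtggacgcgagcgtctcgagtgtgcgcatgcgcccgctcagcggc

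The *Ubn1* window had a GC content of 67.6% and 31 CpG, and held 3 TGACG in all, 2 CCAAT boxes and 1 GC box. It also held 2 E-boxes, and 6.02% of windows held any. The *Ubn2* window had a GC content of 61.6% and 21 CpG, and held 2 TGACG and no CCAAT or GC box. *Daxx* and *Atrx* are shown because their peaks were the strongest and the weakest of the set. The *Daxx* window was chr17:33909195-33909444 on the plus strand and the *Atrx* window was chrX:105929373-105929622 on the minus strand.
Daxx: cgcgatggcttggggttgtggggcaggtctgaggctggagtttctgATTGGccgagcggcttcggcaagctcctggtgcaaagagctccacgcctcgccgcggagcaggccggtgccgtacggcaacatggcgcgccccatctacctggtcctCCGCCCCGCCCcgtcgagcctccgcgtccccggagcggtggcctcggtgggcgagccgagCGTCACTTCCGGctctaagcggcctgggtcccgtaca
Atrx: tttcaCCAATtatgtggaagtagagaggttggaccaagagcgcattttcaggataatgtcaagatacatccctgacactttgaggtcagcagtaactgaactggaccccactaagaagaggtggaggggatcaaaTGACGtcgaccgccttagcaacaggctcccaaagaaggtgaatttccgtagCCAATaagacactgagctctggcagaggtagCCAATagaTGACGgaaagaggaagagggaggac

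The *Daxx* window had a GC content of 70.4% with 29 CpG, and held 2 GC boxes, 1 CCAAT box, 1 ETS site and 1 TGACG. The *Atrx* window had a GC content of 48.4% with 6 CpG, and held 3 CCAAT boxes, 2 TGACG and no GC box. All 250 bases lay inside the start peak of the gene for 9 of 10 genes in each list. *Atrx* was the exception, and no base of its window was in a peak of either list. The *Atrx* peaks themselves were richer in GC than this window, with 67.7% in WT and 70.1% in cKO. A match to a motif describes the letters and does not show that a factor is bound.

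All 10 genes had a peak in their window in both lists, where 55.4% of protein-coding genes did in WT and 63.7% did in cKO. All 10 also had a start peak, against 49.7% of genes in WT and 56.7% in cKO. The windows held 17 WT peaks and 21 cKO peaks. Of the cKO peaks, 12 shared a base with a WT peak and 9 did not and are called gained. Over the whole cKO list, 13144 of 30244 peaks were gained, a similar share. No WT peak in the windows of the 10 genes lacked a cKO partner, a state that is called lost. Gained peaks were found at 3 of 10 genes, against 23.6% of all genes, and lost peaks at none, against 2.2%.

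The start peak had a higher fold in the cKO list at 10 of 10 genes. This is also what nearly every gene showed, since 97.9% of 10839 genes with a start peak in both lists had a higher cKO fold, and the median ratio of cKO to WT was 1.57. The 10 genes had ratios of 1.42 to 2.10 with a median of 1.69. At 6 of 10 genes the ratio was above the median of all genes, and at 8 of 10 the counting interval included it. The exceptions were *H3f3b* and *Daxx*. The *Daxx* ratio compares summits at different sites, and against the WT peak with the nearest summit its interval, 1.31 to 2.07, includes the median too. A direction given below between the lists is therefore best read against 1.57 and not against 1.

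**Figure D1:**
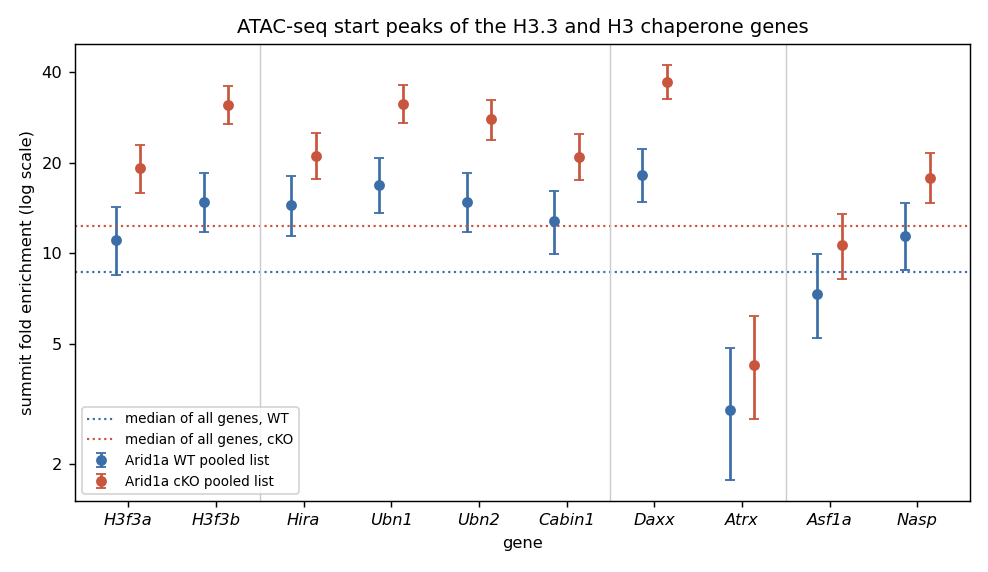
Fold enrichment at the summit of the start peak of each gene (y axis, log scale, no unit) in the *Arid1a* WT list (blue) and the *Arid1a* cKO list (red). Points are the deposited values and bars are 95% Poisson intervals for counting error in 1 library. Dotted lines are the medians of all protein-coding genes with a start peak, 8.63 in WT and 12.3 in cKO. Grey lines separate the H3.3, HIRA, DAXX-ATRX and other chaperone genes. *Daxx* is highest and *Atrx* lowest in both lists, but the cKO summit of *Daxx* lies at the *Tapbp* and *Zbtb22* starts, 6673 bp downstream of the *Daxx* RefSeq start.

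*H3f3a* lies on the minus strand at chr1:180800832-180813943 and had 5 annotated starts. Its start peak in the WT list was chr1:180813013-180814290, 1278 bp wide, on 3 rows, with a fold of 11.1 (8.45 to 14.3) from 58 summit fragments. In the cKO list it was chr1:180812535-180814457, 1923 bp wide, also on 3 rows, with a fold of 19.1 (15.8 to 22.9) from 116 fragments. The summits were 1 bp apart. Summit positions were counted from the first base of the joined rows, and where the called peak began before that base the true summit lies at a lower coordinate. The counted summit lay within the joined rows for 94.9% of WT and 96.6% of cKO peaks. They lay 169 and 170 bp upstream of the RefSeq start, within the GC-rich window printed above. The ratio of cKO to WT was 1.73 (1.26 to 2.43), and the ratio was lower at 72.9% of all genes. The start of *H3f3aos*, an antisense transcript, was in the same peak, so accessibility for the one cannot be told from that for the other.

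A weak peak lay over exon sequence at the 3' end of *H3f3a*. It was 264 bp wide in WT (chr1:180800906-180801169) and 1295 bp wide in cKO (chr1:180800692-180801986). Its fold was 3.0 (1.76 to 4.83) in WT and 3.76 (2.42 to 5.61) in cKO, and these intervals overlap. It was on 3 rows in both lists.

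*H3f3b* lies on the minus strand at chr11:116021912-116027962 and is the shorter gene of the pair. Its WT start peak was chr11:116022973-116025220, 2248 bp wide, with a fold of 14.8 (11.8 to 18.4) from 78 fragments. The cKO start peak was chr11:116019008-116025961, 6954 bp wide, with a fold of 31.1 (26.8 to 35.8) from 189 fragments. The ratio was 2.10 (1.62 to 2.79), the highest of the 10 genes, and the ratio was lower at 95.6% of all genes. The summits were 173 bp apart, 287 bp and 114 bp upstream of the nearest annotated start, so the folds were read at nearby sites.

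The wide cKO peak at *H3f3b* also covered a further WT peak. This one, chr11:116019256-116021953, was 2698 bp wide with a fold of 4.31 (2.77 to 6.44). It began in the gene's last bases and ran downstream of it. In WT the start peak and the downstream peak were separate, and in cKO all DNA from the inner starts to beyond the 3' end was in 1 peak on 4 rows. Peaks covered 32.5% of the *H3f3b* window in WT and 64.2% in cKO, against 10.9% and 21.8% for *H3f3a*. A gained peak of 478 bp in an intron, chr11:116027338-116027815, had a fold of 2.95 (1.78 to 4.62) on 2 rows and lay 360 bp downstream of the outermost start.

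Set side by side, *H3f3b* had the higher start peak of the pair in both lists. In WT the folds of 14.8 and 11.1 gave a ratio of *H3f3b* to *H3f3a* of 1.34 (0.945 to 1.92), and this interval includes 1. In cKO the folds of 31.1 and 19.1 gave 1.62 (1.29 to 2.07), and this interval does not. The cKO to WT ratio of *H3f3b* was 1.21 times that of *H3f3a*, and their intervals overlap. Of the 50-base stretches tiled over its WT start peak, 77.3% occurred once in the genome, and 87.0% did over the cKO start peak. For *H3f3a* every such stretch did in both. Fragments in the shared stretches may have been placed at the wrong copy. Their part in the result was not tested.

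**Figure D2:**
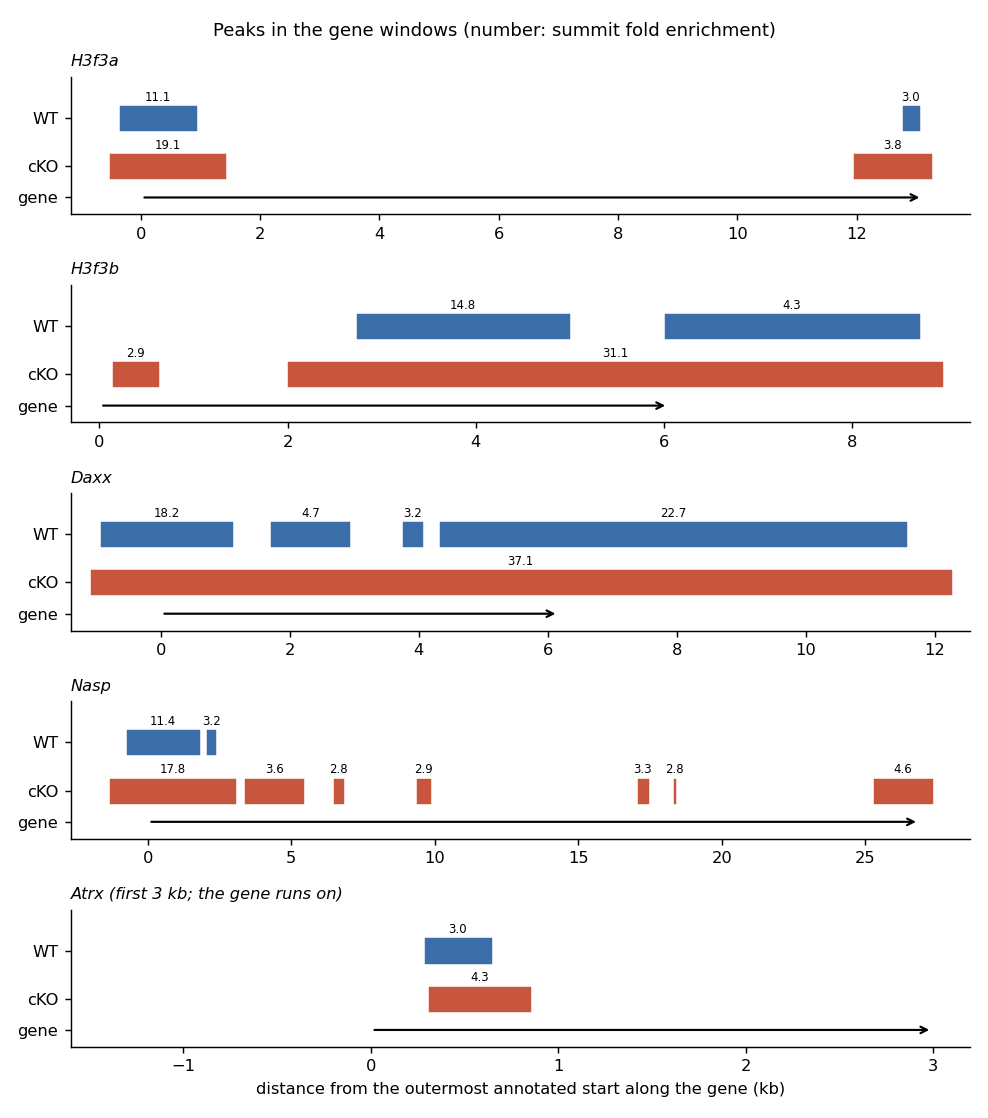
Peaks in the gene windows of *H3f3a*, *H3f3b*, *Daxx*, *Nasp* and *Atrx* in the WT list (blue) and the cKO list (red), with the summit fold above each. The x axis is the distance from the outermost annotated start in kb, with transcription to the right, and the arrow is the gene. At *H3f3b* and *Daxx* 1 cKO peak covers 2 and 4 WT peaks, and at *Nasp* 6 cKO peaks have no WT partner.

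The HIRA complex genes had strong start peaks, and *Hira*, *Ubn1* and *Ubn2* had no other peak in their windows. The folds of the 4 start peaks were 12.8 to 16.9 in WT and 20.9 to 31.4 in cKO, all above the medians of all genes. *Ubn1*, at chr16:5050057-5086289 on the plus strand, was the highest. Its peak was chr16:5049349-5050868 in WT and chr16:5048994-5051040 in cKO, with a fold of 16.9 (13.6 to 20.7) and 31.4 (27.1 to 36.2). The ratio was 1.86 (1.45 to 2.44). The summits, 11 bp apart, lay 156 bp and 145 bp upstream of the start. The start of the gene *Glyr1*, read the other way, was in the same peak.

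*Ubn2*, the paralog of *Ubn1*, lies at chr6:38433950-38524825 on the plus strand. Its WT peak, chr6:38432713-38434455, had a fold of 14.8 (11.8 to 18.4). Its cKO peak, chr6:38431239-38435280, had a fold of 27.8 (23.8 to 32.3). The ratio of 1.88 (1.44 to 2.50) was close to that of *Ubn1*. The cKO peak was 4042 bp wide against 1743 bp in WT and overlapped 2 WT peaks. No other gene started in it.

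*Hira*, the scaffold of the complex, lies at chr16:18877037-18970309 on the plus strand. Its peak was chr16:18876223-18877764 in WT, with a fold of 14.4 (11.4 to 18.0). In cKO it was chr16:18876119-18877869, with a fold of 21.1 (17.6 to 25.1). The ratio of 1.46 (1.10 to 1.98) was below the median of all genes, which its interval includes. The width differed least here, 1542 bp and 1751 bp, a ratio of 1.14. The start of *Mrpl40*, which encodes a mitochondrial ribosomal protein, was in the same peak.

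*Cabin1* lies at chr10:75646112-75764341 on the minus strand. Its start peak was chr10:75764060-75765290 in WT, with a fold of 12.8 (9.93 to 16.1). In cKO it was chr10:75763798-75765381, with a fold of 20.9 (17.5 to 24.9), a ratio of 1.64 (1.22 to 2.26). A second peak deep in the gene held 2 of its 13 annotated starts. That peak was chr10:75667022-75668160 in WT and chr10:75666990-75668731 in cKO. Its folds were 6.75 (4.76 to 9.32) and 15.4 (12.4 to 18.8), and these intervals do not overlap. Such a comparison is with equal folds and not with the median ratio of 1.57 of all genes. The second peak was on 3 rows in both lists. In cKO 2 gained intronic peaks were also listed. The first, chr10:75669681-75670010, had a fold of 2.45 (1.42 to 4.0) on 2 rows, and the other, chr10:75708484-75708844, a fold of 3.44 (2.16 to 5.22) on 1 row.

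*Daxx* lies at chr17:33909414-33915590 on the plus strand, in a dense cluster of genes. In WT its window held 4 peaks. The start peak, chr17:33908482-33910525, had a fold of 18.2 (14.8 to 22.2) from 96 fragments and held the start of the divergent RNA *BC051226*. Within the gene, chr17:33911126-33912339 had a fold of 4.69 (3.07 to 6.89) and chr17:33913176-33913467 a fold of 3.19 (1.90 to 5.06). The widest, chr17:33913748-33920967, was 7220 bp with a fold of 22.7 (18.9 to 27.1) and held the starts of *Tapbp*, which encodes tapasin, and *Zbtb22*.

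In cKO a single peak of 13331 bp, chr17:33908331-33921661, covered all 4. Its fold was 37.1 (32.5 to 42.3) from 226 fragments, and it covered the whole *Daxx* window, of which peaks covered 75.1% in WT. Its summit was at the *Tapbp* and *Zbtb22* starts, 53 to 219 bp from them and 6736 bp from the WT *Daxx* summit. The ratio of 2.04 (1.61 to 2.64) to the WT start peak thus compared different sites. Against the WT peak whose summit was nearest, the ratio was 1.64 (1.31 to 2.07). The accessibility of the *Daxx* start itself in cKO is not given by the list.

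*Atrx*, the X-linked member, lies at chrX:105797615-105929403 on the minus strand. It had the weakest peak of the 10 in both lists. In WT it was chrX:105928764-105929113, 350 bp wide, with a fold of 3.0 (1.76 to 4.83) from 15 fragments on 1 row. In cKO it was chrX:105928555-105929093, 539 bp wide, with a fold of 4.25 (2.81 to 6.20) from 25 fragments on 3 rows. The ratio was 1.42 (0.737 to 2.97), and at this depth a difference was not detectable. Both peaks were centred in an intron near the 5' end. They ended 259 bp and 279 bp short of the promoter window printed above, and their summits were 515 bp and 611 bp downstream of the RefSeq start. They count as start peaks only because another of the 27 annotated starts lies at chrX:105928577.

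The peak of *Atrx* was weak among X-linked genes as well. Of 948 such genes, 252 had a start peak in WT (26.6%) and 447 in cKO (47.2%), with median folds of 5.07 and 5.73. The *Atrx* fold was above that of 1.59% of these peaks in WT and 24.2% in cKO. The X chromosome is normally silenced at this stage, and the authors report that this silencing fails in *Arid1a* cKO cells. Males also have 1 copy, so a fold on X is not on the same footing as a fold on an autosome.

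The HIRA group was above the DAXX-ATRX group only by way of *Atrx*. The median fold of the 4 HIRA complex genes was 14.6 in WT and 24.5 in cKO, and the mean of *Daxx* and *Atrx* was 10.6 and 20.7, a ratio of 1.38 and 1.18. *Daxx* was above each of the 4 HIRA complex genes in both lists, and *Atrx* was below each. The HIRA median was 4.88 times the *Atrx* fold in WT and 5.75 times in cKO. *Daxx* itself was 6.06 (3.69 to 11.9) and 8.73 (5.97 to 14.3) times *Atrx*. The cKO value of *Daxx* was taken at the *Tapbp* and *Zbtb22* starts. With so different a pair in it, the DAXX-ATRX group has no common level.

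*Asf1a* lies at chr10:53596757-53609225 on the plus strand, and *Mcm9*, a helicase gene, starts in the same peak on the other strand. The peak was chr10:53596528-53597816 in WT, with a fold of 7.32 (5.23 to 9.97). In cKO it was chr10:53596284-53597851, with a fold of 10.6 (8.23 to 13.5). Next to *Atrx* it was the weakest of the set, and below the medians of all genes in both lists. Its ratio of 1.45 (0.968 to 2.26) has an interval that includes 1.

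*Nasp* lies at chr4:116601052-116627941 on the minus strand. Its start peak was chr4:116626170-116628653 in WT, 2484 bp wide, with a fold of 11.4 (8.78 to 14.7). In cKO it was chr4:116624897-116629268, 4372 bp wide, with a fold of 17.8 (14.7 to 21.5). The ratio of 1.56 (1.13 to 2.19) was at the median of all genes. A further WT peak of 298 bp in the first part of the gene was inside the wider cKO peak.

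*Nasp* held most of the gained peaks. Of the 9 gained peaks of the set, 6 were in *Nasp*, and 74 of 21938 genes (0.337%) had 6 or more. Peaks covered 9.97% of its window in WT and 31.7% in cKO. The strongest, chr4:116600625-116602646, was 2022 bp wide at the 3' end with a fold of 4.58 (3.08 to 6.59) on 4 rows. The next, chr4:116622527-116624536, was 2010 bp wide, held 1 annotated start, and had a fold of 3.60 (2.29 to 5.42) on 3 rows. The other 4 had folds of 2.78 to 3.27 on 1 or 2 rows, and 1 of them was only 44 bp wide. Of the 50-base stretches tiled over the strongest and the next, 96.2% and 89.9% occurred once in the genome. Over chr4:116618091-116618563 it was 82.4%, and the 44 bp peak was too short to hold such a stretch. In the remaining gained *Nasp* peaks every stretch occurred once. The part of misplaced fragments in these peaks was not tested.

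The gained peaks of the set were weak. Their folds were 2.45 to 4.58 with a median of 2.95, against 3.44 for all 13144 gained peaks. The median width was 378 bp against 507 bp. Of the 9, 2 were on 3 or more rows, 4 on 2 rows and 3 on 1 row. Of all 13144 gained peaks, 7563 were on 3 or more rows, 3186 on 2 rows and 2395 on 1 row. The lowest summit in the cKO list was 14 fragments, and the gained peaks had 14 to 27 fragments. The *Nasp* peaks with 27 and 21 fragments had −log10 q values of 9.49 and 5.44, and the other 7 were below 5. The lowest summit in the WT list was 13 fragments, and the cKO library had the higher background, 5.11 against 4.33 fragments per base. A WT signal just under that value would not be listed.

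**Figure D3:**
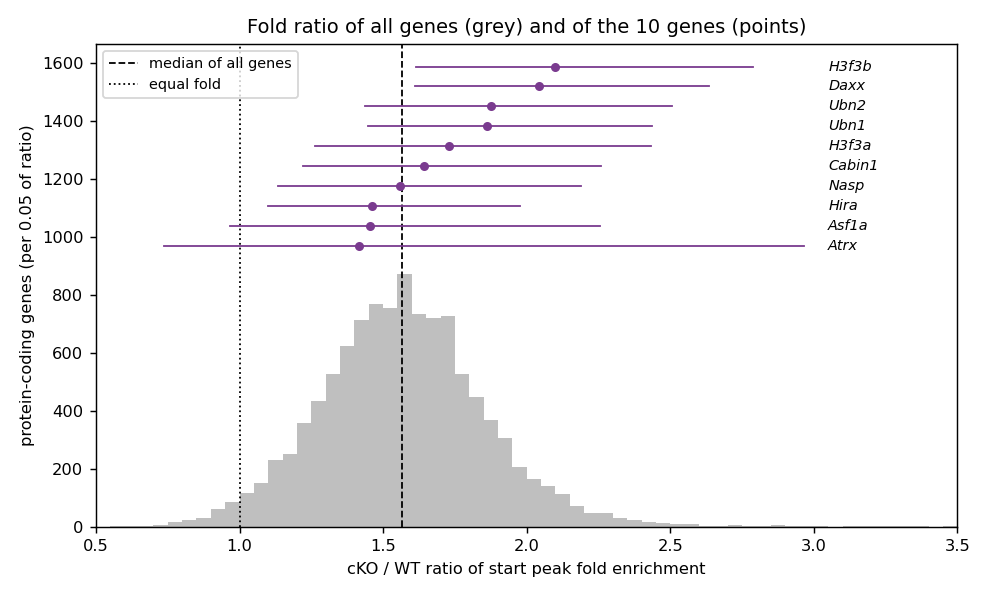
Ratio of the cKO to the WT start peak fold (x axis, no unit). Grey bars count protein-coding genes with a start peak in both lists per 0.05 of ratio (y axis), and points with lines are the 10 genes with their 95% counting intervals, set above one another for legibility. The dashed line is the median of all genes, 1.57, and the dotted line is 1. Only the intervals of *H3f3b* and *Daxx* lie to the right of the median, that of *Daxx* from summits at different sites (1.31 to 2.07 against the WT peak with the nearest summit), and those of *Asf1a* and *Atrx* include 1.

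Start peaks were also wider in cKO at 10 of 10 genes, and 95.3% of all genes with both peaks showed this. The median width of the 10 was 1531 bp in WT and 1985 bp in cKO, against 1068 bp and 1470 bp for all genes. The ratio of widths ranged from 1.14 at *Hira* to 6.52 at *Daxx*, with a median of 1.52 against 1.44. At 4 genes, *H3f3b*, *Ubn2*, *Daxx* and *Nasp*, the cKO start peak overlapped 2 or more WT peaks, as did 4.87% of the 12443 cKO start peaks of all genes. Of the 2047 genes with both a cKO start peak and a WT fold at or above the median of the set, 7.57% did. The *Daxx* peak covered 4 WT peaks, and 4 or more were covered at 0.362% of genes. These 4 genes had the widest cKO start peaks of the set, 4042 to 13331 bp, and the other 6 genes had 539 to 2047 bp.

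**Figure D4:**
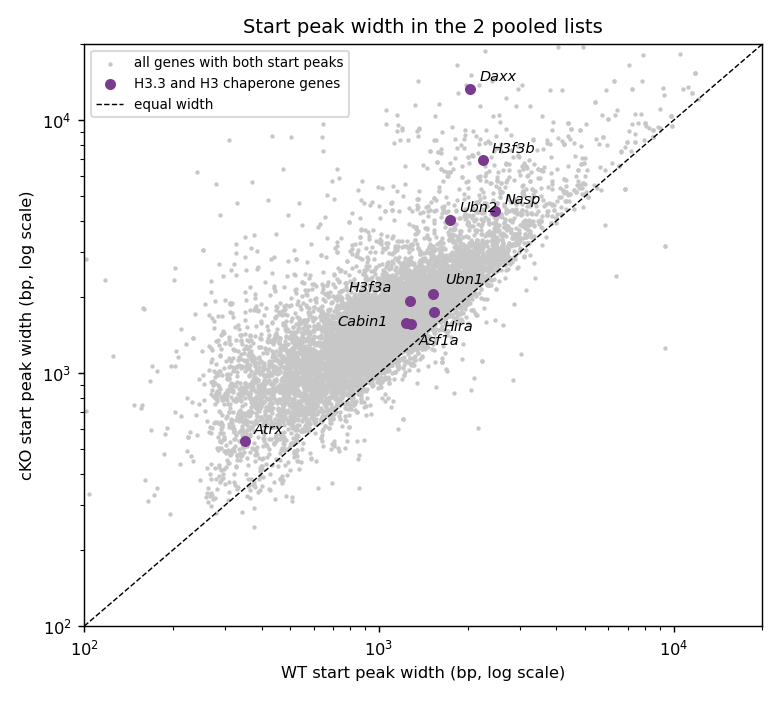
Width of the start peak in the WT list (x axis, bp, log scale) and in the cKO list (y axis, bp, log scale). Grey points are all protein-coding genes with a start peak in both lists, purple points are the 10 genes, and the dashed line is equal width. All 10 lie above it, and *Daxx*, with 2044 bp in WT and 13331 bp in cKO, is farthest from it.

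The folds differed between the lists, and the order of the genes was similar. In WT the order from the highest fold was *Daxx*, *Ubn1*, *Ubn2* and *H3f3b* with the same value, *Hira*, *Cabin1*, *Nasp*, *H3f3a*, *Asf1a* and *Atrx*. Neighbours in that order had overlapping intervals as far as *Asf1a*. The interval of *Atrx*, 1.76 to 4.83, lay below that of *Asf1a*, 5.23 to 9.97. In cKO the order was *Daxx*, *Ubn1*, *H3f3b*, *Ubn2*, *Hira*, *Cabin1*, *H3f3a*, *Nasp*, *Asf1a* and *Atrx*, where the place of *Daxx* rests on a summit at the *Tapbp* and *Zbtb22* starts. Again *Atrx* was apart, at 2.81 to 6.20 against 8.23 to 13.5, and the interval of *Asf1a* lay below that of *Nasp*, 14.7 to 21.5. The median fold of the 10 was 13.6 in WT and 21.03 in cKO, against 8.63 and 12.3 for all genes.

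A further 26 genes of H3 metabolism gave the surroundings. Of these, 25 had a start peak in both lists (49.7% and 56.7% of all genes had one in WT and in cKO), and *Pml*, which encodes the body-forming partner of DAXX, had one in neither. The fold was higher in cKO at 25 of 25 genes, against 97.9% of all genes, and the peak was wider at 24 of 25, against 95.3%. The exception was *Trim28*, a corepressor gene, with 4576 bp in WT and 4467 bp in cKO. Gained peaks were found at 7 of 26 genes, against 23.6% of all genes, and lost peaks at 1, against 2.2%. That gene was *Zmynd11*, which encodes a reader of H3.3 methylated on lysine.

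The 4 genes around CAF-1, the chaperone that deposits H3-H4 during replication, had a median ratio of 1.73. The range ran from 1.23 at *Chaf1b* (12.2 in WT and 15.1 in cKO) to 2.06 at *Asf1b* (18.9 and 38.9). *Asf1b* encodes the paralog of ASF1A, and its folds were above those of *Asf1a* in both lists. Among 13 other H3-H4 chaperone genes the median ratio was 1.61, from 1.25 at *Ssrp1*, a FACT subunit gene (10.7 and 13.4), to 2.57 at *Tonsl* (3.56 and 9.16). Among the readers and partners of H3.3 it was 1.61, from 1.36 at *Setdb1*, a histone methyltransferase gene (7.69 and 10.5), to 2.11 at *Hirip3*, which encodes a HIRA-binding protein (9.0 and 19.0). *Rbbp7*, X-linked like *Atrx*, had folds of 7.69 and 16.2. The 2 medians of 1.61 were near the 1.57 of all genes. That of the CAF-1 genes, 1.73, was higher but within the quartiles of all genes, 1.38 to 1.74.

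The cells were checked by marker genes of the cell types that a testis preparation can hold. Of 8 pachytene markers, such as *Sycp1* and *Piwil1*, 8 had a start peak in both lists, with folds of 5.25 to 23.3 in WT. Of all protein-coding genes, 49.7% had a start peak in WT and 56.7% in cKO. Start peaks were found at 1 of 6 spermatogonial markers in WT and 3 in cKO, and at 2 and 3 of 5 spermatid markers. They were found at 1 and 3 of 4 Sertoli markers, 1 and 1 of 4 Leydig markers, and 0 and 1 of 3 macrophage markers. The Sertoli gene *Sox9* had none in either list, nor did *Gfra1*, *Insl3* and *Ptprc*. The Sertoli gene *Amh* had a fold of 3.19 and a width of 420 bp in WT, and 13.4 and 4830 bp in cKO. *Wt1*, *Cldn11*, *Kit*, *Zbtb16* and *Cd68* had a start peak in cKO only, with folds of 3.11 to 3.93, and so did *Prm1* with 3.44. The spermatid gene *Prm2* had a fold of 3.19 in WT and lay in a cKO peak of 8599 bp with a fold of 32.4 that also holds the *Tnp2* start. In WT the *Tnp2* start had a separate peak of 5745 bp with a fold of 17.8. The *Prm2* folds of WT and cKO may therefore come from different sites. The part of these cells in the values of the 10 genes was not tested. A peak at a start shows open DNA and not that the gene is transcribed.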

How the data were processed

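The authors made ATAC-seq libraries by the Omni-ATAC protocol, aligned reads to mm10 with bowtie2, removed duplicates and mitochondrial reads, and called peaks per library with MACS2 (q threshold 0.05, no local background, no mapping quality filter stated). They removed blacklisted regions and intersected the replicates. Each deposited list gives fold enrichment as a linear ratio, −log10 q values (−log10 p was not used), a display score and, under the unit other, interval ends and a summit offset. Depth beyond the background of the naming library is unknown.

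Rows were collapsed by peak name with Python 3.11.15, pandas 2.3.3, numpy 2.4.6 and scipy 1.17.1. The lists held 52419 rows and 19309 peaks in WT and 84006 rows and 30244 peaks in cKO. All folds fell on a grid of whole fragments (tolerance 0.01 steps), which gave background and summit pileups. The code was tested on simulated peaks. Genes were taken from GENCODE M21. Peaks were common if they shared at least 1 bp. Widths and folds were compared as values with no test. The named genes were all members and, in each further list, the highest and lowest ratio and genes whose count was an exception. The genes, lists and comparisons were chosen with earlier results of these data known. *Asf1b*, *Rbbp7* and the single markers were picked after their values were seen. Alternatives are given in the closing section.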

Additional observations from a re-analysis of the deposited data

How the results depend on the processing

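No paired analysis was possible because each deposited list is 1 intersection of the peaks of the 4 libraries of a genotype, with folds from 1 library. Leaving out a replicate could not be run for the same reason. Of 79 values under 16 other settings, 65 stayed within set bounds and 14 moved beyond them. The bounds were the counting interval for ratios of folds, 10% for widths and 1.5 times for counts. For medians and groups the interval was that from the summed summit fragments. No ratio crossed 1, and direction was not scored for counts. The counts of peaks depended on the threshold. Gained peaks numbered 9, but 4 with −log10 q of at least 5, 0 with at least 10, 3 with peaks on at least 3 rows, 1 with the cKO list shortened to the length of the WT list, and 18 with each row counted. Only 2 of the 4 and 2 of the 3 were among the 9, all at *Nasp*. The others were peaks at *H3f3a* and *Atrx* (−log10 q) and at *Atrx* (rows) whose WT partner was filtered out. The shortened list also gave 1 lost peak in place of 0. WT peaks numbered 17, but 11 with −log10 q of at least 10 and 47 by rows. The cKO peaks numbered 21, but 10 with −log10 q of at least 10, 12 with the shortened list and 56 by rows. These settings drop or split peaks by construction. In the main setting the windows held more cKO than WT peaks. They held fewer with −log10 q of at least 10 and with the shortened list, where the WT count stayed at 17. They also held fewer with peaks on at least 3 rows, 14 in cKO and 15 in WT.

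Members with a start peak numbered 8 to 10 in every setting. With the outermost start alone, *H3f3b* and *Atrx* had none in either list, so the *H3f3b* to *H3f3a* and the group ratios could not be had there. The median cKO to WT fold ratio stayed between 1.64 and 1.73, and that of all genes between 1.56 and 1.59. The median width ratio was above that of all genes except with the outermost start alone, where it was 1.43 against 1.44. The ratio of the HIRA to the DAXX-ATRX group in WT, 1.38, was 1.14 with 3000 bp on either side of a start. In cKO it was 1.02 in place of 1.18 with *Asf1a* counted in the HIRA group. With *Daxx* left out, a choice made after seeing the data, it was 4.88 in WT and 5.75 in cKO.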
